A study of Mus musculus with 7 samples.

Results

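The proteasome genes of mouse bone marrow cells were followed through 7 RNA sequencing libraries. Members were taken by name, as the protein-coding symbols of the GENCODE M21 annotation that begin with Psma, Psmb, Psmc, Psmd, Psme, Psmf or Psmg and a digit. The annotation holds 50 such symbols, and 49 of them are among the 28987 genes analysed. Psmb9, the inducible partner of Psmb6, was not analysed here. By role, the members fell into 7 subunits of the alpha ring, 4 non-catalytic and 3 constitutive catalytic subunits of the beta ring, 4 immunoproteasome genes, 6 ATPases and 3 other subunits of the base, 8 subunits of the lid, 7 assembly chaperones, and 3 other activators or inhibitors. Psma8, a testis form of an alpha subunit, and Psmb11, a thymic form of a catalytic subunit, were kept apart. The naming rule also took in Psmc3ip, a recombination factor, and Psme2b, a gene resembling Psme2. The 49 genes lie on 16 chromosomes, and 45 of them had at least 1 TPM (the deposited level, which is already divided by transcript length) in all 7 libraries.

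The study asked what a RUNX1 mutation and overexpression of HMGA2, alone and together, do to gene expression in stem and progenitor cells (HSC/P) and in Ly6G+ myeloid cells of C57BL/6 mice. The HSC/P groups were RUNX1mut/HMGA2-OE, with 2 libraries, and HMGA2-OE, with 1 library. The Ly6G+ groups were RUNX1mut/HMGA2-OE, RUNX1mut, HMGA2-OE and Control, with 1 library each. All HSC/P libraries therefore carry HMGA2-OE, and no unmodified HSC/P library was analysed here. HSC/P were enriched by CD117 selection and the mutant clone was then sorted, and the mutant Ly6G+ cells were sorted from marrow of single mice. The labels give neither age, nor the RUNX1 allele, nor what drives HMGA2.

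The calprotectin genes S100a8 and S100a9, abundant neutrophil products, took 1.75% and 1.67% of TPM in RUNX1mut/HMGA2-OE HSC/P and 5.93% in HMGA2-OE HSC/P. In Ly6G+ cells they took 17.5% in RUNX1mut/HMGA2-OE, 48.5% in RUNX1mut, 62.1% in HMGA2-OE and 52.8% in Control. Since TPM is a share of a fixed total, proteasome levels in Ly6G+ cells are also compared with these genes left out of the total or relative to other proteasome genes of the same library. The sort markers were present: Kit stood at 61.8 to 155 TPM in HSC/P and at 3.43 to 5.20 TPM in Ly6G+ cells. Ly6g stood at 7.28 to 136 TPM in HSC/P and at 269.6 to 441 TPM in Ly6G+ cells, with its highest HSC/P value in the HMGA2-OE library.

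The proteasome degrades proteins tagged with ubiquitin. Its barrel, the 20S core, is made of outer alpha rings, which gate the entrance, and inner beta rings, in which Psmb5, Psmb6 and Psmb7 carry the cutting sites. The 19S cap has a base, whose ATPases unfold the substrate, and a lid, whose enzyme Psmd14 removes ubiquitin. Dedicated chaperones such as Psmg1 to Psmg4 help to build the alpha ring and are not part of the finished core. Interferon and the hematopoietic lineage favour the immunoproteasome, in which Psmb8 replaces Psmb5, Psmb9 replaces Psmb6 and Psmb10 replaces Psmb7, and the Psme1 and Psme2 activator caps the core, a form known for making peptides for MHC class I. The transcription factor Nfe2l1 raises proteasome genes together when proteasome activity falls short.

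Short stretches near the start sites of 6 genes show the letters by which these known inputs are usually looked for. Windows from 250 bases before to 50 bases after the start were taken from RefSeq (GRCm38.p6) and covered 41 of the 49 members in 44 windows. Capitals mark matches, on either strand, to the antioxidant response element TGACNNNGC, the interferon-stimulated element (GAAA and again GAAA, 2 bases apart), the gamma-activated site TTCNNNGAA, CCAAT, or the RUNX core TGTGGT. The constitutive catalytic genes Psmb5 (chr14:54617996-54618245, minus strand) and Psmb6 (chr11:70525107-70525356, plus strand) are shown as a pair, since each holds an antioxidant response element match.
Psmb5: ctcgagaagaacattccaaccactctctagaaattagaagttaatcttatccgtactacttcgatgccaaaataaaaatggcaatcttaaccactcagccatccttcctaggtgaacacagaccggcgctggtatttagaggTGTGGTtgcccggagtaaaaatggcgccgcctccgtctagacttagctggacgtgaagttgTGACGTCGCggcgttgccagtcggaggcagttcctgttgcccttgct
Psmb6: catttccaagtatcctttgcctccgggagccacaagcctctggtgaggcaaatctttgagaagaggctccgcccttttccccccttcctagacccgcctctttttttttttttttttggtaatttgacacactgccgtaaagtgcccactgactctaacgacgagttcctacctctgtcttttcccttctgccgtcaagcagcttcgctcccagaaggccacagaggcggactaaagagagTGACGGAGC
The chaperone gene Psmg4 (chr13:34162714-34162988, plus strand) is shown because it was among the genes that differed most between the cell types.
Psmg4: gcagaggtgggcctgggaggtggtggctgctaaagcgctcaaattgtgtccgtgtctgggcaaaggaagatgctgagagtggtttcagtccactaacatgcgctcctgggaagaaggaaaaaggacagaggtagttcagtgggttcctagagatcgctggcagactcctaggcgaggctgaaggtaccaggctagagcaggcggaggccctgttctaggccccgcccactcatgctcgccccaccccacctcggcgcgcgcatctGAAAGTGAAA
For Psmb10 (chr8:105938388-105938417, minus strand), Psmb8 (chr17:34198087-34198116, plus strand) and Psme1 (chr14:55578493-55578522, plus strand), the 30 bases around the match are shown. Their windows overlap exons of longer GENCODE transcripts.
Psmb10: tggcatgcacatACCACAttcactcacaca
Psmb8: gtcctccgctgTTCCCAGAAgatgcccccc
Psme1: cgagctgtgcTTTCGCTTTCccttcccgct
The match of Psmb10 is a RUNX core on the opposite strand, 13 bases before the start. That of Psmb8 is a gamma-activated site that begins 97 bases before the start, and that of Psme1 is an interferon-stimulated element on the opposite strand. The matches of Psme1 and Psmg4 lie after the start, beginning at bases 10 and 16. An interferon-stimulated element match was in 5 of the 44 member windows (11.4%), against 3.44% of all 32851 windows. These were the windows of Psmd4, Psmb3, Psmd9, Psmg4 and Psme1, so Psme1 was the only immunoproteasome gene among them. The other motifs were in member windows about as often as in all windows, with 13.6% against 12.4% for the antioxidant response element, 6.82% against 8.30% for the gamma-activated site, 31.8% against 37.4% for CCAAT and 15.9% against 16.8% for the RUNX core. A match describes the letters and is no evidence of binding.

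Proteasome RNA took a much larger share of HSC/P libraries than of Ly6G+ libraries. The summed level of the 49 genes was 6731 and 6870.2 TPM in RUNX1mut/HMGA2-OE HSC/P and 6569 TPM in HMGA2-OE HSC/P. Among Ly6G+ cells it was 2864 TPM in RUNX1mut/HMGA2-OE, 1957 TPM in RUNX1mut, 1244 TPM in HMGA2-OE and 1629 TPM in Control. With S100a8 and S100a9 left out of the total, the share was 0.742%, 0.747% and 0.779% in the 3 HSC/P libraries, against 0.353%, 0.384%, 0.331% and 0.348% in Ly6G+ cells in the same order of genotypes. The HSC/P and Ly6G+ ranges were apart on both scales, and on the second the Ly6G+ genotypes lay close together. Fewer cells of a type and less RNA per cell cannot be told apart in such libraries.

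**Figure D1:**
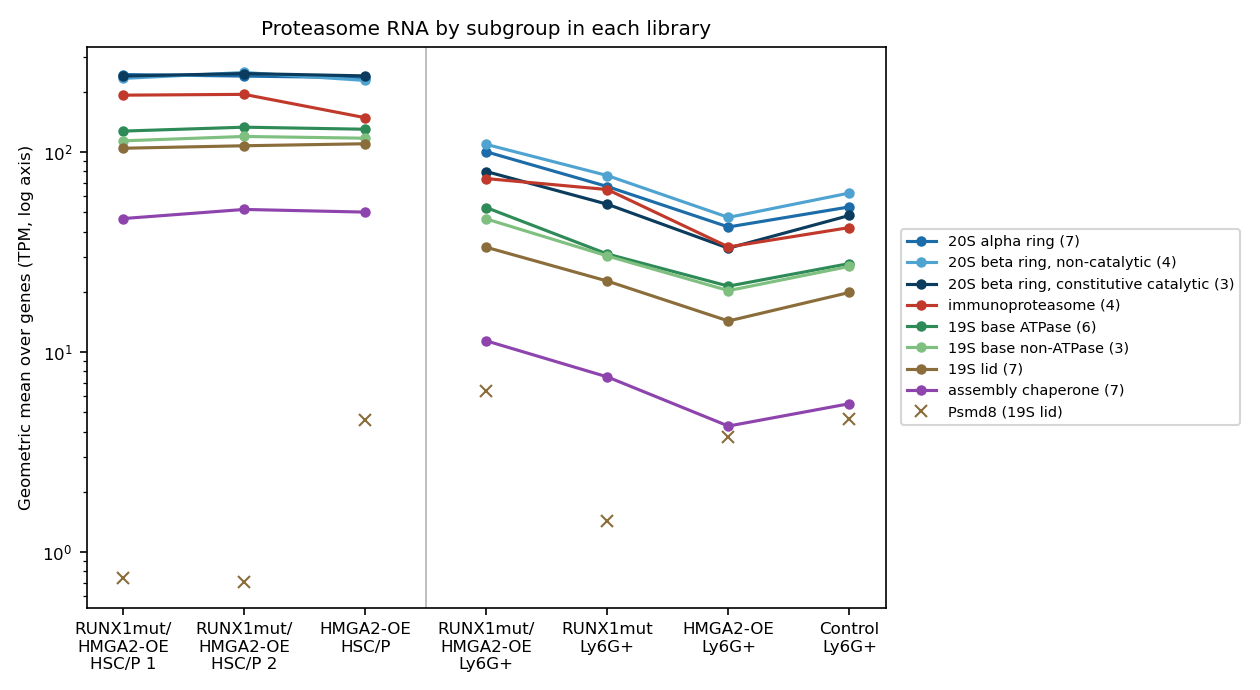
Geometric mean TPM (log axis) of each proteasome subgroup in each library, with the number of genes in parentheses and lines joining libraries of 1 cell type. The 8 subgroup lines stay within a narrow band across HSC/P, lie lower and further apart in Ly6G+ cells, and the lid gene Psmd8, drawn as crosses at 0.707 to 6.399 TPM, stands far below the other 7 lid genes.

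The alpha and beta rings were nearly even in HSC/P and uneven in Ly6G+ cells. Over the 7 alpha subunits and the 4 non-catalytic beta subunits, which go into the core in equal number, the coefficient of variation of TPM was 21.1% and 18.3% in RUNX1mut/HMGA2-OE HSC/P and 18.7% in HMGA2-OE HSC/P. It was 49.9% in RUNX1mut/HMGA2-OE, 49.9% in RUNX1mut, 55.0% in HMGA2-OE and 56.3% in Control Ly6G+ cells. The highest alpha subunit exceeded the lowest by 2.01 to 2.32 times in HSC/P, where Psma7 led and Psma5 was last, and by 4.90 to 6.33 times in Ly6G+ cells, where Psma2 led. Psma4 had 229.1 and 230.9 TPM in RUNX1mut/HMGA2-OE HSC/P and 208.7 TPM in HMGA2-OE HSC/P, compared with 40.2, 26.7, 13.03 and 20.1 TPM in RUNX1mut/HMGA2-OE, RUNX1mut, HMGA2-OE and Control Ly6G+ cells. Psma2 had 268.6 and 260.5 TPM in RUNX1mut/HMGA2-OE HSC/P and 256.1 TPM in HMGA2-OE HSC/P, compared with 199.4, 130.9, 82.5 and 109.4 TPM in those Ly6G+ cells. So Psma4 stood beside Psma2 in HSC/P and far below it in every Ly6G+ library. The beta subunit Psmb3 behaved like Psma2, with 270.0 to 287.2 TPM in HSC/P and 108.4 to 216.7 TPM in Ly6G+ cells, whereas Psmb4 had 217.0 to 263.7 TPM in HSC/P and 22.4 to 57.8 TPM in Ly6G+ cells. Psma5, the lowest alpha subunit in HSC/P, had 154.8 and 159.2 TPM in RUNX1mut/HMGA2-OE HSC/P and 165.9 TPM in HMGA2-OE HSC/P, compared with 37.9, 27.6, 17.5 and 18.7 TPM in RUNX1mut/HMGA2-OE, RUNX1mut, HMGA2-OE and Control Ly6G+ cells. Of its 31-base stretches, 60.96% also occur in other genes, so its level, and the ratios that rest on it, are uncertain.

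Among the constitutive cutting subunits, Psmb7, which carries the trypsin-like site, was the one that was low in Ly6G+ cells. Its level was 251.0 and 261.4 TPM in RUNX1mut/HMGA2-OE HSC/P and 275.8 TPM in HMGA2-OE HSC/P, compared with 38.4 TPM in RUNX1mut/HMGA2-OE, 24.96 TPM in RUNX1mut, 13.9 TPM in HMGA2-OE and 23.0 TPM in Control Ly6G+ cells. Relative to the mean of the 11 core genes of the same library, that was 103% to 117% in HSC/P and 26.6% to 34.2% in Ly6G+ cells. Psmb5, the chymotrypsin-like subunit, had 216.4 and 208.2 TPM in RUNX1mut/HMGA2-OE HSC/P and 211.6 TPM in HMGA2-OE HSC/P, compared with 93.7, 72.3, 42.2 and 61.2 TPM in RUNX1mut/HMGA2-OE, RUNX1mut, HMGA2-OE and Control Ly6G+ cells. Psmb6, the caspase-like subunit, had 253.4 and 275.9 TPM in RUNX1mut/HMGA2-OE HSC/P and 237.3 TPM in HMGA2-OE HSC/P, compared with 141.7, 91.2, 61.5 and 79.5 TPM in the same Ly6G+ order. Of the 31-base stretches of Psmb5 transcripts, 71.7% also occur in other genes, mostly a pseudogene, so its level is uncertain, and 10.3% of those of Psmb7 are shared with its neighbour Nek6.

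Of the inducible subunits, Psmb8 stood near the core genes in both cell types, and Psmb10 well below them. Psmb8, which replaces Psmb5, had 254.5 and 227.1 TPM in RUNX1mut/HMGA2-OE HSC/P and 176.7 TPM in HMGA2-OE HSC/P, compared with 105.3, 100.3, 60.6 and 69.3 TPM in RUNX1mut/HMGA2-OE, RUNX1mut, HMGA2-OE and Control Ly6G+ cells. Psmb8 made up 54.0% and 52.2% of Psmb5 plus Psmb8 in RUNX1mut/HMGA2-OE HSC/P and 45.5% in HMGA2-OE HSC/P, and 52.9%, 58.1%, 59.0% and 53.1% in those Ly6G+ libraries. Within HSC/P the RUNX1mut/HMGA2-OE libraries were the higher ones, while the Ly6G+ values showed no such order. These shares are uncertain, since 71.7% of the 31-base stretches of Psmb5 and 13.7% of those of Psmb8 also occur in other genes. Psmb10, which replaces Psmb7, had 109.5 and 124.8 TPM in RUNX1mut/HMGA2-OE HSC/P and 68.2 TPM in HMGA2-OE HSC/P, compared with 23.7 TPM in RUNX1mut/HMGA2-OE, 23.9 TPM in RUNX1mut, 8.60 TPM in HMGA2-OE and 9.84 TPM in Control Ly6G+ cells. Its share of Psmb7 plus Psmb10 was 30.4% and 32.3% in RUNX1mut/HMGA2-OE HSC/P and 19.8% in HMGA2-OE HSC/P, and 38.2%, 48.9%, 38.2% and 29.99% in the same Ly6G+ order. In both cell types the HMGA2-OE level of Psmb10 in TPM was below every library with the RUNX1 mutation. In Ly6G+ cells the summed level of all members was also lower there, at 1244 TPM in HMGA2-OE against 2864 TPM in RUNX1mut/HMGA2-OE and 1957 TPM in RUNX1mut. The Psmb10 share did not separate HMGA2-OE from RUNX1mut/HMGA2-OE Ly6G+ cells, at 38.2% in both.

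The activator subunits changed places between the cell types. Psme1 had 250.1 and 252.3 TPM in RUNX1mut/HMGA2-OE HSC/P and 228.8 TPM in HMGA2-OE HSC/P, compared with 83.8, 70.4, 45.1 and 59.9 TPM in RUNX1mut/HMGA2-OE, RUNX1mut, HMGA2-OE and Control Ly6G+ cells. Psme2 had 196.5 and 198.4 TPM in RUNX1mut/HMGA2-OE HSC/P and 175.6 TPM in HMGA2-OE HSC/P, compared with 140.6, 105.1, 53.8 and 75.6 TPM in the same Ly6G+ order. Psme1 exceeded Psme2 in all 3 HSC/P libraries, with ratios of 1.27 to 1.30, and was below it in all 4 Ly6G+ libraries, with ratios of 0.596 to 0.838. Psme2 shares 33.5% of its 31-base stretches with Psme2b, and reads of these genes cannot be told apart where they are identical. Psme2b had 9.573 and 3.836 TPM in RUNX1mut/HMGA2-OE HSC/P and 5.25 TPM in HMGA2-OE HSC/P, compared with 18.9, 10.66, 7.417 and 10.06 TPM in those Ly6G+ cells.

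**Figure D2:**
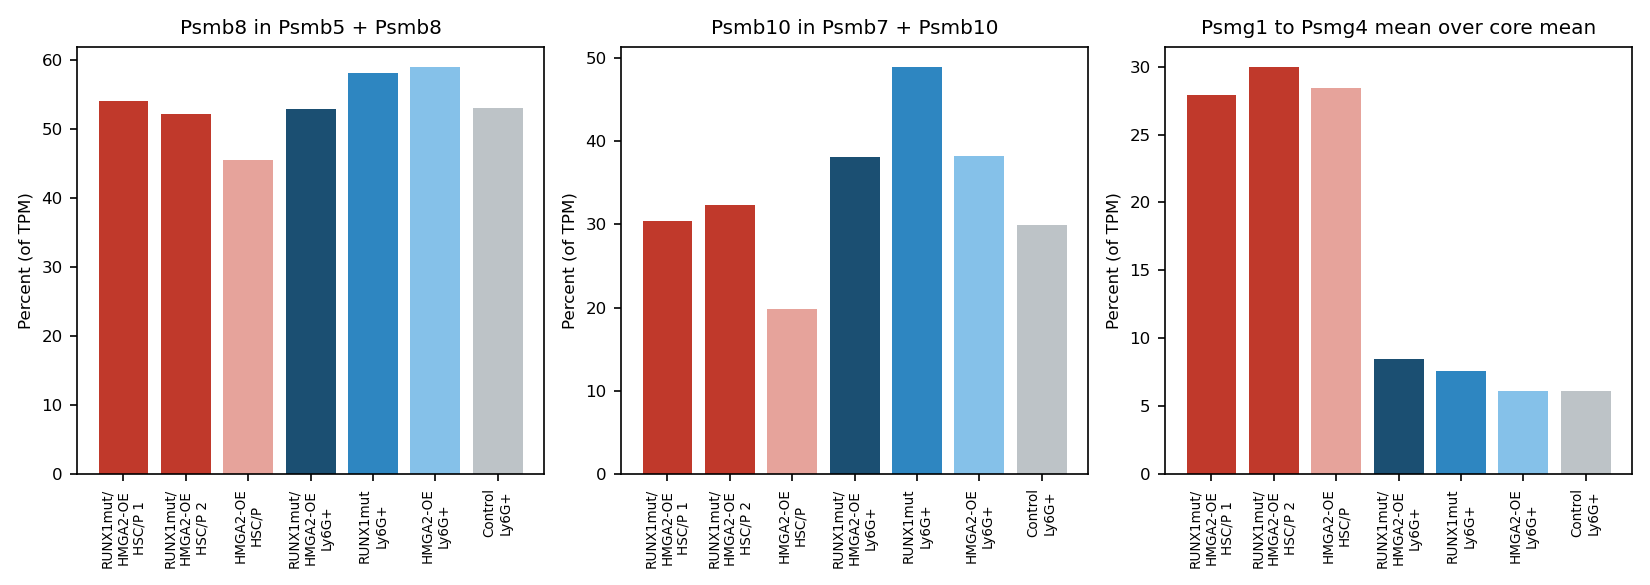
Ratios within each library, in percent of TPM: Psmb8 in Psmb5 plus Psmb8 (left), Psmb10 in Psmb7 plus Psmb10 (middle), and the mean of Psmg1 to Psmg4 over the mean of 11 core genes (right), each bar 1 library. Psmb10 runs from 19.8% in HMGA2-OE HSC/P to 48.9% in RUNX1mut Ly6G+ cells, and the chaperone ratio is 27.9% to 29.95% in HSC/P and 6.08% to 8.48% in Ly6G+ cells. The left ratio rests on Psmb5, whose level is uncertain.

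The 19S cap was lower relative to the core in Ly6G+ cells than in HSC/P. The 6 base ATPases averaged 53.8% and 55.3% of the core mean in RUNX1mut/HMGA2-OE HSC/P and 55.8% in HMGA2-OE HSC/P, compared with 47.2%, 39.6%, 42.2% and 42.3% in RUNX1mut/HMGA2-OE, RUNX1mut, HMGA2-OE and Control Ly6G+ cells. The mean of the lid genes without Psmd8 was 44.9% and 45.3% of the core mean in RUNX1mut/HMGA2-OE HSC/P and 48.3% in HMGA2-OE HSC/P, compared with 30.2%, 30.2%, 29.8% and 33.0% in the same Ly6G+ order. Neither range of percentages overlapped between the cell types. Psmc3 had 181.6 and 179.4 TPM in RUNX1mut/HMGA2-OE HSC/P and 150.4 TPM in HMGA2-OE HSC/P, compared with 104, 47.73, 32.25 and 39.46 TPM in RUNX1mut/HMGA2-OE, RUNX1mut, HMGA2-OE and Control Ly6G+ cells, with its highest Ly6G+ value in the RUNX1mut/HMGA2-OE library. All ATPases, Psmc1 to Psmc6, spanned 89.2 to 181.6 TPM in HSC/P and 15.9 to 104 TPM in Ly6G+ cells. The other base subunits, Psmd1, Psmd2 and the ubiquitin receptor Psmd4, spanned 91.7 to 137.4 TPM in HSC/P and 11.3 to 69.7 TPM in Ly6G+ cells. In the lid, Psmd3, Psmd6, Psmd11, Psmd12, Psmd13 and Psmd14 had 58.9 to 161.7 TPM in HSC/P and 10.2 to 53.7 TPM in Ly6G+ cells. Psmd11 had 58.91 and 64.03 TPM in RUNX1mut/HMGA2-OE HSC/P and 70.78 TPM in HMGA2-OE HSC/P, compared with 20.03, 15.23, 10.2 and 17.7 TPM in RUNX1mut/HMGA2-OE, RUNX1mut, HMGA2-OE and Control Ly6G+ cells. Psmd7, the partner of the deubiquitinase Psmd14, had 109.9 and 122.4 TPM in RUNX1mut/HMGA2-OE HSC/P and 139.0 TPM in HMGA2-OE HSC/P, compared with 20.3, 13.3, 7.57 and 8.23 TPM in those Ly6G+ libraries.

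The lid gene Psmd8 stood apart from its neighbours in the complex. It had 0.744 and 0.707 TPM in RUNX1mut/HMGA2-OE HSC/P and 4.58 TPM in HMGA2-OE HSC/P. In Ly6G+ cells it had 6.399 TPM in RUNX1mut/HMGA2-OE, 1.43 TPM in RUNX1mut, 3.78 TPM in HMGA2-OE and 4.603 TPM in Control. The next lowest lid gene in HSC/P was at 58.9 TPM, although lid subunits go into a cap in equal number. Only 2.06% of its 31-base stretches occur in other genes. Whether the level of Psmd8 reflects how transcripts were assigned was not tested.

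The assembly chaperones were far lower in Ly6G+ cells, also beside the core genes of the same library. The mean of Psmg1 to Psmg4 was 27.9% and 29.95% of the core mean in RUNX1mut/HMGA2-OE HSC/P and 28.4% in HMGA2-OE HSC/P, compared with 8.48%, 7.60%, 6.08% and 6.12% in RUNX1mut/HMGA2-OE, RUNX1mut, HMGA2-OE and Control Ly6G+ cells. Psmg4 had 111.5 and 102.4 TPM in RUNX1mut/HMGA2-OE HSC/P and 95.9 TPM in HMGA2-OE HSC/P, compared with 15.2, 5.49, 3.74 and 3.19 TPM in the same Ly6G+ order. Psmg2, the partner of Psmg1, had 63.8 and 87.2 TPM in RUNX1mut/HMGA2-OE HSC/P and 71.998 TPM in HMGA2-OE HSC/P, compared with 7.57, 6.20, 3.59 and 3.65 TPM in those Ly6G+ cells. The HSC/P libraries were thus far above every Ly6G+ library for both genes. Psmg1 had 54.64 and 65.16 TPM in RUNX1mut/HMGA2-OE HSC/P and 52.97 TPM in HMGA2-OE HSC/P, compared with 7.003, 5.33, 2.404 and 4.64 TPM in RUNX1mut/HMGA2-OE, RUNX1mut, HMGA2-OE and Control Ly6G+ cells. Psmg3, the partner of Psmg4, had 43.59 and 41.41 TPM in RUNX1mut/HMGA2-OE HSC/P and 47.64 TPM in HMGA2-OE HSC/P, compared with 10.75, 7.567, 2.974 and 4.949 TPM in those Ly6G+ cells. Both were highest in HSC/P, and among Ly6G+ cells both were lowest in the HMGA2-OE library. Of the base chaperones, Psmd9 had 22.44 and 23.73 TPM in RUNX1mut/HMGA2-OE HSC/P and 28.31 TPM in HMGA2-OE HSC/P, compared with 4.378, 2.857, 1.651 and 2.625 TPM in RUNX1mut/HMGA2-OE, RUNX1mut, HMGA2-OE and Control Ly6G+ cells. Psmd10, known in other settings as gankyrin, had 26.9 and 29.96 TPM in RUNX1mut/HMGA2-OE HSC/P and 27.03 TPM in HMGA2-OE HSC/P, compared with 22.38, 17.54, 12.27 and 15.56 TPM in those Ly6G+ cells. Psmd5 had 45.8 to 59.0 TPM in HSC/P and 13.2 to 29.0 TPM in Ly6G+ cells, so that Psmd5 and Psmd10 were less far apart between the cell types than Psmd9.

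The other activators and the inhibitor were also higher in HSC/P in deposited TPM. Psme3, a nuclear activator, had 134.3 and 129.3 TPM in RUNX1mut/HMGA2-OE HSC/P and 163.5 TPM in HMGA2-OE HSC/P, compared with 43.11, 26.56, 17.05 and 21.86 TPM in RUNX1mut/HMGA2-OE, RUNX1mut, HMGA2-OE and Control Ly6G+ cells. Psme4, a large activator, had 24.05 and 24.76 TPM in RUNX1mut/HMGA2-OE HSC/P and 22 TPM in HMGA2-OE HSC/P, compared with 4.671, 2.328, 1.791 and 3.43 TPM in those Ly6G+ cells. The inhibitor Psmf1 had 28.39 and 34.81 TPM in RUNX1mut/HMGA2-OE HSC/P and 38.38 TPM in HMGA2-OE HSC/P, compared with 11.46, 8.561, 4.463 and 6.672 TPM in those Ly6G+ cells. For all of these every HSC/P library was above every Ly6G+ library, and within HSC/P the HMGA2-OE library was the highest for Psme3 and Psmf1. Psmc3ip had 28.71 and 30.06 TPM in RUNX1mut/HMGA2-OE HSC/P and 31.03 TPM in HMGA2-OE HSC/P, compared with 3.914, 3.217, 0.6615 and 1.241 TPM in RUNX1mut/HMGA2-OE, RUNX1mut, HMGA2-OE and Control Ly6G+ cells, and it shares 19.01% of its 31-base stretches with Mlx. Psma8 had 7.155 and 3.676 TPM in RUNX1mut/HMGA2-OE HSC/P and 5.797 TPM in HMGA2-OE HSC/P, compared with 0.3166, 0.1604, 0 and 0.0272 TPM in those Ly6G+ cells, so that it was close to absent from Ly6G+ cells. Psmb11 never exceeded 0.391 TPM.

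The difference between HSC/P and Ly6G+ cells was then compared gene by gene. This took in the 48 members, and the 12881 genes in all, that had at least 1 TPM in 2 or more libraries. In deposited TPM, all 3 HSC/P libraries were above all 4 Ly6G+ libraries for 46 of the 48 members, against 66.5% of all these genes. They were below them for 0 members, against 9.18% of all these genes. The exceptions were Psmd8 and Psme2b. With S100a8 and S100a9 left out of the totals the counts were 44 members higher, against 60.3% of all genes, and 1 lower, Psme2b, against 17.1%. On that scale the mean share in HSC/P exceeded that in Ly6G+ cells by 10.04-fold for Psmg4, 8.60-fold for Psmg2, 7.31-fold for Psmg1, 6.495-fold for Psmb7, 6.29-fold for Psmd7 and 5.58-fold for Psma4. The median over the 7 assembly chaperones was 5.34-fold, and over the alpha ring, the constitutive catalytic genes and the immunoproteasome genes it was 1.95-fold, 1.91-fold and 1.89-fold. No such median was taken over all genes, most of which were also higher in HSC/P on that scale. After the scaling used below, which centres the bulk of genes, the median log2 differences were 1.16, -0.31, -0.21 and -0.29 in the same order. The median of all genes was 0.10 there. On the scale without S100a8 and S100a9, Psma2 at 1.23-fold and Psmb3 at 1.08-fold were close to even. Psmd8 at 0.306-fold had a lower mean in HSC/P, but its ranges overlapped. That low mean came from the RUNX1mut/HMGA2-OE HSC/P libraries, at 0.744 and 0.707 TPM, while HMGA2-OE HSC/P had 4.58 TPM.

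The 5 libraries with HMGA2-OE, which give both genotypes in both cell types, were tested with limma after scaling that centres the bulk of genes (Benjamini-Hochberg adjusted p under 0.05). The spread in this fit comes from the 2 RUNX1mut/HMGA2-OE HSC/P libraries alone, since the other 3 groups are single libraries, so its p-values take that spread to hold for Ly6G+ cells too. Of 48 members tested, 31 passed, against 71.5% of all 12686 genes tested, with 18 higher in HSC/P, against 35.9% of all genes, and 13 lower, against 35.7%. These shares are near those of all genes, and the members' median log2 difference was 0.07, against 0.10 for all genes. Among assembly chaperones, 5 of 7 rose in HSC/P relative to Ly6G+ cells, with Psmg2 at 1.77 ± 0.18 (log2 difference ± SE; adjusted p = 0.00675), Psmg4 at 1.73 ± 0.11 (adjusted p = 0.00294) and Psmg1 at 1.71 ± 0.13 (adjusted p = 0.00385), and 1, Psmd10, fell by 1.17 ± 0.10, which turned without scaling. Psmb7 rose by 1.55 ± 0.08 (adjusted p = 0.00261), Psmd7 by 1.36 ± 0.10, Psma4 by 1.28 ± 0.08 and Psmb10 by 0.67 ± 0.11 (adjusted p = 0.0162). Psmb3 fell by 1.11 ± 0.09, Psma2 by 0.94 ± 0.09, Psme2 by 0.86 ± 0.08, Psmb8 by 0.59 ± 0.11 (adjusted p = 0.0227) and Psmb6 by 0.53 ± 0.09, though without scaling all of these 5 were higher in HSC/P. Psmb5 differed by -0.21 ± 0.09 and Psme1 by 0.00 ± 0.08, and neither passed. The largest values were those of Psmc3ip (1.98 ± 0.11), Psma8 (1.804 ± 0.32), Psmd8 (-2.40 ± 0.13) and Psme2b (-2.69 ± 0.41), all of which passed. With no filter on low values, Psma8 and Psme2b did not pass (limma, adjusted p of 0.0873 and 0.1005), and 78.4% of the 31-base stretches of Psme2b occur in other genes, so its value is uncertain.

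**Figure D3:**
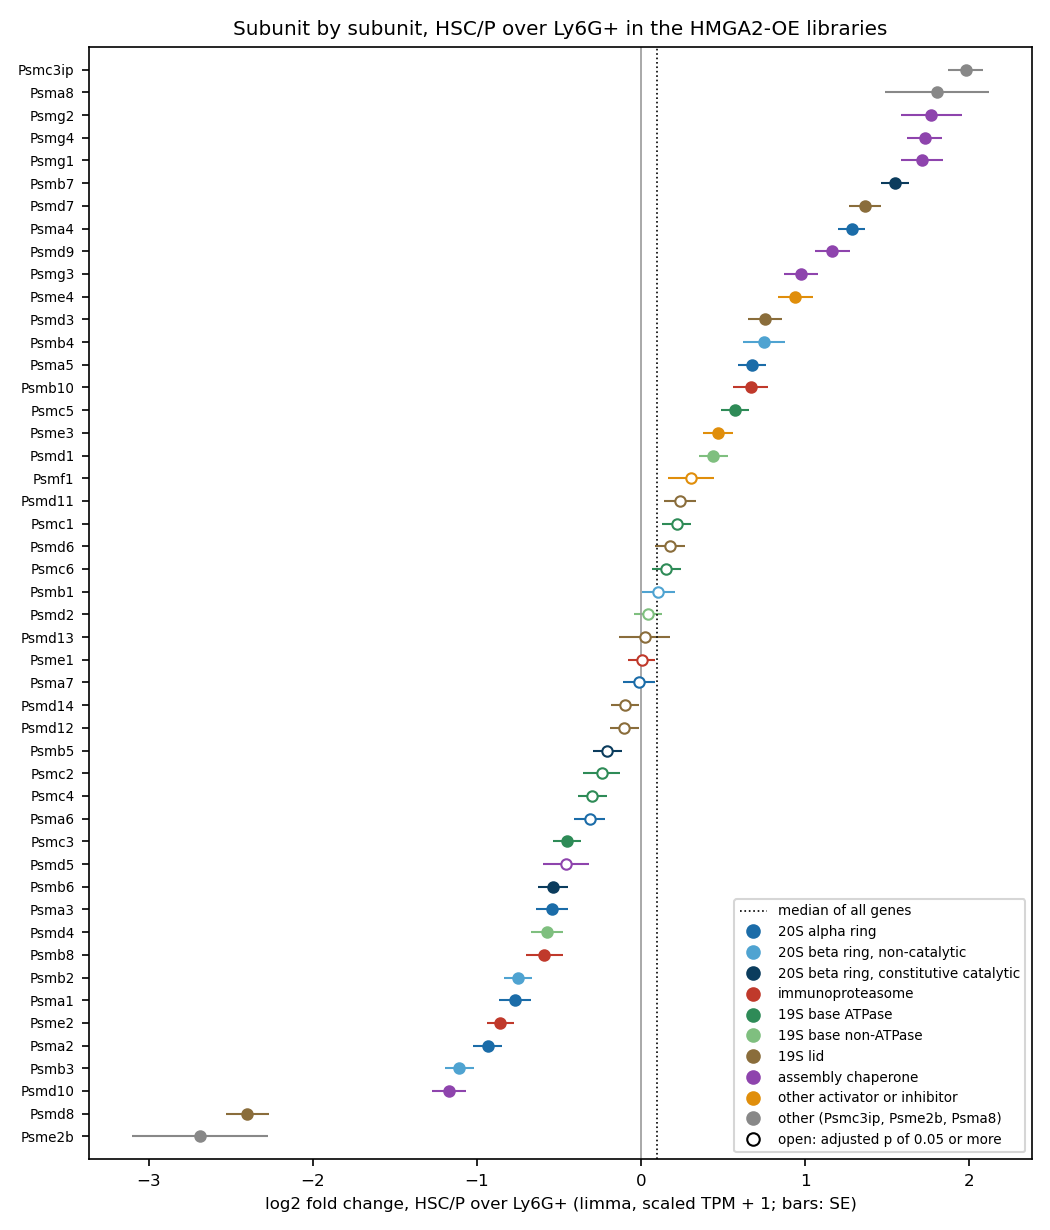
Log2 difference, HSC/P over Ly6G+ (x axis; limma on scaled TPM with 1 TPM added, bars are SE), for the 48 members tested, coloured by subgroup and filled where the adjusted p was under 0.05. Psmg1, Psmg2, Psmg4, Psmb7, Psmd7 and Psma4 lie to the right, Psmd10, Psme2, Psma2, Psmb3 and Psmd8 to the left, and the dotted line is the median of all genes; the zero point depends on the scaling.

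The zero of this test depends on the scaling. Without scaling, 47 members passed, 46 of them higher and 1 lower in HSC/P, where the median of all genes was itself shifted by 1.49 and 81.3% of genes passed. With upper-quartile scaling, 35 passed, 30 higher and 5 lower, against 46.8% and 26.0% of all genes, and the median of all genes was at 0.55. Psmb6, Psmb8 and Psme2 were not among those 35. With no filter on low values, 30 passed, 23 higher and 7 lower. Without scaling, Psmb6, Psmb8, Psme2 and Psmd10, lower in HSC/P after scaling, stood at 1.41, 1.36, 1.09 and 0.70, which is below that shift, and Psmb5 at 1.74. In an additive fit to all 7 libraries the call of Psmb8 was lost (limma, adjusted p = 0.0577), and that of Psmb10 was lost when any HSC/P library or the RUNX1mut/HMGA2-OE Ly6G+ library was left out (limma, adjusted p between 0.0653 and 0.272). The directions of single members are therefore to be read relative to the other genes of the libraries. The neutrophil marker list, 8 of 8 genes measured, summed to 17154 to 57631 TPM in HSC/P and 252053 to 647810 TPM in Ly6G+ cells, and its part in these results was not tested.

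Between the HSC/P genotypes, Psmb10 had the highest value among proteasome genes, but no member passed the test (0% of 12226 genes tested did, with a smallest adjusted p of 0.112 over all genes), and 3 of 47 members had an unadjusted p under 0.05, against 15.6% of all genes. Psmb10 was at 0.60 ± 0.14 in RUNX1mut/HMGA2-OE over HMGA2-OE HSC/P (limma, adjusted p = 0.215), with log2 ratios of 0.53 and 0.67 for the 2 RUNX1mut/HMGA2-OE libraries over the single HMGA2-OE library. Psmb8 was at 0.27 ± 0.15 (adjusted p = 0.446), with 0.38 and 0.17 for the 2 libraries. The others with an unadjusted p under 0.05 were Psme3 at -0.48 ± 0.12 (adjusted p = 0.243) and Psmd7 at -0.43 ± 0.13 (adjusted p = 0.274).

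After scaling, most constitutive members lay slightly on the other side. Of the 47 members, 41 were below 0, against 51.9% of all genes, with a median of -0.12 against -0.02 for all genes; without scaling 17 were below 0, with medians of 0.05 for the members and 0.14 for all genes. That count included 7 of 7 alpha subunits, 3 of 3 constitutive catalytic subunits, 4 of 4 non-catalytic beta subunits, 7 of 7 lid subunits tested and 5 of 6 base ATPases. Psmd9 at -0.45 ± 0.16, Psmf1 at -0.44 ± 0.18 and Psmc3 at 0.09 ± 0.12 were the next in each direction, and none passed. The immunoproteasome genes had a median of 0.14, with Psme1 at -0.03 ± 0.11 and Psme2 at 0.00 ± 0.11. The spread in this fit comes from the 2 RUNX1mut/HMGA2-OE libraries alone, and the HMGA2-OE side is a single library.

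Summed marker RNA of other cell types also differed in this contrast, though single genes made up most of some sums. The neutrophil list summed to 17154 and 17469 TPM in RUNX1mut/HMGA2-OE HSC/P and 57631 TPM in HMGA2-OE HSC/P. Most of this sum was S100a8 and S100a9, and the list's member Cxcr2 went the other way, at 30.1 and 26.0 TPM against 16.4 TPM. The stem and progenitor list, 7 of 7 genes measured, summed to 804 and 724 TPM against 316 TPM. The dendritic list, 3 of 3 genes, summed to 109.5 and 105.3 TPM in RUNX1mut/HMGA2-OE HSC/P and 34.1 TPM in HMGA2-OE HSC/P. Nearly all of that difference was its MHC class II gene H2-Ab1, with 94.4 and 96.1 TPM against 24.8 TPM, while its member Flt3 had 13.6 and 8.06 TPM against 8.59 TPM. The megakaryocyte list, 3 of 3 genes, summed to 690 and 1785 TPM against 399 TPM. Its members Itga2b, at 313 and 640 TPM against 22.5 TPM, and Gp9, at 38.8 and 162.9 TPM against 22.0 TPM, were higher in both libraries. Pf4 had 338.7 and 982.6 TPM against 354.5 TPM, and so was not higher in the first of them. The erythroid list, 4 of 4 genes, was lower, at 637 and 1039 TPM against 1275 TPM. The part of these lists in the Psmb10 difference was not tested.

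In Ly6G+ cells, with 1 library per genotype, an additive fit gave a term for the RUNX1 mutation and one for HMGA2-OE. The spread in this fit is the departure of the single libraries from additive terms, not a spread between replicates. A joint effect of the mutation and HMGA2-OE would therefore count as error. No member passed for either term (0% of 9820 genes tested). For the RUNX1 term, 3 of 47 members had an unadjusted p under 0.05, against 14.3% of all genes: Psmc3ip at 0.82 ± 0.14, Psmg4 at 0.61 ± 0.14 and Psmg3 at 0.47 ± 0.13 (limma; adjusted p of 0.331, 0.331 and 0.347). Psmb10 stood at 0.64 ± 0.26 (adjusted p = 0.399), Psmb8 at -0.02 ± 0.25, Psme1 at -0.12 ± 0.15 and Psme2 at 0.24 ± 0.10. The largest falls in value were Psmd8 at -0.85 ± 0.33, Psmd11 at -0.29 ± 0.12 and Psme4 at -0.20 ± 0.25. For the HMGA2-OE term, 1 of 47 members, Psmg4 at 0.62 ± 0.14 (adjusted p = 0.735), had an unadjusted p under 0.05, against 6.51% of all genes. Psmd8 stood at 0.58 ± 0.33 and Psmc3 at 0.29 ± 0.16 for that term, and Psmg1 at -0.33 ± 0.15, Psmd11 at -0.30 ± 0.12 and Psmc3ip at -0.27 ± 0.14.

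**Figure D4:**
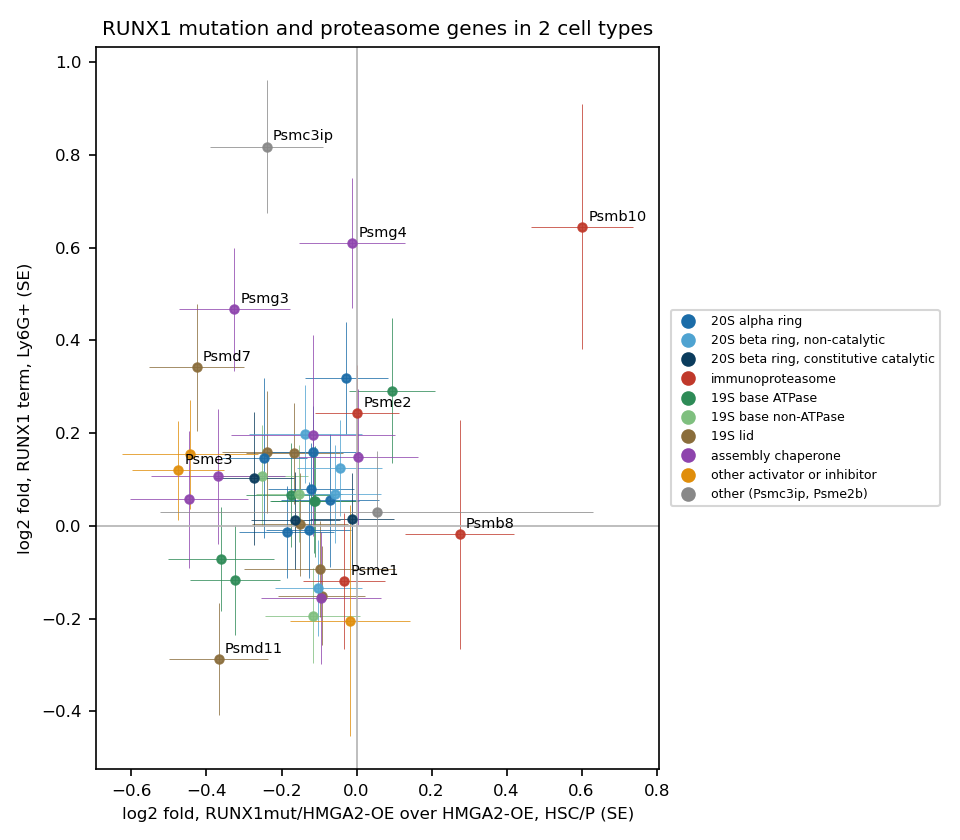
Log2 difference with the RUNX1 mutation in HSC/P (x axis, RUNX1mut/HMGA2-OE over HMGA2-OE) and in Ly6G+ cells (y axis, RUNX1 term), bars are SE, 1 point per member tested in both, coloured by subgroup. Most members lie within 0.5 of 0 on both axes, Psmb10 is at 0.60 and 0.64, and no point passed the adjusted test on either axis.

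Single Ly6G+ libraries showed which genotype carried these values. After scaling, Psmb10 differed by 0.43 (log2 ratio, 1 TPM added) in RUNX1mut/HMGA2-OE over Control, 1.04 in RUNX1mut over Control, 0.18 in HMGA2-OE over Control, 0.25 in RUNX1mut/HMGA2-OE over HMGA2-OE and -0.61 in RUNX1mut/HMGA2-OE over RUNX1mut. The RUNX1mut library was thus the highest of the 4. In RUNX1mut over Control, 2 of 47 members were past 2-fold, Psmb10 upward (5.36% of all genes were higher by that much) and Psmd8 downward at -1.34 (3.56% of all genes). Psmg4 was the 1 member past 2-fold in RUNX1mut/HMGA2-OE over Control, at 1.23 (6.66% of all genes were higher by that much and 5.88% lower), and Psmd8 the 1 in RUNX1mut/HMGA2-OE over RUNX1mut, at 1.07 (3.97% higher and 4.39% lower). No member was past 2-fold in RUNX1mut/HMGA2-OE over HMGA2-OE (4.93% of all genes higher and 4.99% lower) or in HMGA2-OE over Control (3.27% higher and 3.19% lower). These ratios share libraries and have no replicate check.

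The marker sums below are deposited TPM and, unlike the ratios above, are not scaled. The scaling factors of these libraries ran from 0.690 in HMGA2-OE to 1.58 in RUNX1mut/HMGA2-OE Ly6G+ cells. In deposited TPM, the dendritic list had the same order of libraries as Psmb10. It summed to 52.0 TPM in RUNX1mut/HMGA2-OE, 95.5 TPM in RUNX1mut, 8.93 TPM in HMGA2-OE and 9.79 TPM in Control Ly6G+ cells, nearly all of it H2-Ab1, which had 50.9, 94.3, 7.96 and 9.37 TPM. Its plasmacytoid marker Siglech stayed between 0.192 and 0.842 TPM. The B lymphoid list, 3 of 3 genes, summed to 28.2, 22.0, 8.66 and 9.77 TPM and the macrophage and monocyte list, 4 of 4, to 153.8, 108.4, 45.8 and 53.1 TPM in the same order, and the T and NK list, 2 of 2, never exceeded 1.49 TPM. Other lists were also higher in the libraries with the RUNX1 mutation. In the same order, the erythroid list summed to 864, 192, 46.0 and 45.6 TPM, the megakaryocyte list to 52.6, 40.4, 3.46 and 3.03 TPM, and the stem and progenitor list to 31.97, 26.7, 9.29 and 11.4 TPM. The part of these lists in the Psmb10 values was not tested.

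Whether the RUNX1 mutation acted differently in the cell types was tested as an interaction in the 5 libraries with HMGA2-OE. No member passed (0% of 12686 genes), and 5 of 48 had an unadjusted p under 0.05, against 18.1% of all genes. Psmb8 was the 1 of these above 0, at 0.74 ± 0.22 (limma; adjusted p = 0.266), and Psmc3ip at -1.25 ± 0.22, Psmd8 at -0.99 ± 0.26, Psmg3 at -0.86 ± 0.20 and Psmg4 at -0.72 ± 0.21 were below 0. Psmb10 was at 0.41 ± 0.21 (adjusted p = 0.419) and Psme1 at 0.34 ± 0.17. Without scaling, the values of Psmb8 and Psmb10 changed sign, to -0.35 and -0.59. The median of all genes was itself at -0.77 there, so both stayed above it.

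Genes that work beside the proteasome were compared in the same fits. Of 21 associated, assembly and ubiquitin receptor genes, 6 rose and 8 fell in HSC/P relative to Ly6G+ cells, against 35.9% and 35.7% of all genes, with medians of -0.10 for the list and 0.10 for all genes. Without scaling 19 were higher and 2 lower, against 70.1% and 11.3% of all genes, and with upper-quartile scaling 11 and 5, against 46.8% and 26.0%. Pomp, which matures the core and had 232.4 to 255.1 TPM in HSC/P and 40.0 to 103.4 TPM in Ly6G+ cells, differed by -0.07 ± 0.09 and did not pass, but was at 1.87 without scaling. The shuttle receptor Rad23b rose by 2.95 ± 0.14, while the ubiquitin gene Ubb fell by 2.4953 ± 0.14. Of 9 regulators of proteasome genes, 3 rose and 3 fell, against the same 35.9% and 35.7%: Nfe2l1 at -0.32 ± 0.12 did not pass, Ddi2, the protease that activates it, rose by 1.55 ± 0.16, and Nfe2l2, the oxidative stress factor, fell by 1.86 ± 0.10 but was at 0.075 without scaling, where 6 of the list were higher and 1 lower. Of 12 MHC class I and interferon genes, 3 rose and 8 fell, against 35.9% and 35.7% of all genes, among which H2-D1 fell by 4.10 ± 0.14, Irf1 fell by 3.15 ± 0.11, and the class I activator Nlrc5 rose by 1.64 ± 0.12. Without scaling 7 of these were higher and 3 lower, against 70.1% and 11.3% of all genes, and with upper-quartile scaling 3 and 5, against 46.8% and 26.0%.

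The MHC class I and interferon list lay on the same side as Psmb10 between the HSC/P genotypes. In RUNX1mut/HMGA2-OE over HMGA2-OE HSC/P, 10 of 12 were above 0, against 48.1% of all genes, with a median of 0.21 against -0.02, and none passed. H2-K1, a class I heavy chain, had 1156 and 1422 TPM in RUNX1mut/HMGA2-OE HSC/P and 711.6 TPM in HMGA2-OE HSC/P (0.68 ± 0.15, limma adjusted p = 0.213). Irf1, an interferon response factor, had 44.9 and 51.7 TPM in RUNX1mut/HMGA2-OE HSC/P and 27.0 TPM in HMGA2-OE HSC/P (0.65 ± 0.16, limma adjusted p = 0.229). In the same comparison the 21 proteasome partners had a median of -0.12 and the 9 regulators one of 0.01, with none called in either list. In Ly6G+ cells, the list medians for the RUNX1 term were 0.11 for MHC class I and interferon genes, 0.03 for partners and -0.16 for regulators, and for the HMGA2-OE term -0.09, 0.01 and 0.04, again with none called.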

How the data were processed

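RNA of 7 libraries in 6 groups was sequenced. The authors deposited one table of 28987 genes, whose values are TPM as read from the values. Per the submitters' processing notes, bcl2fastq, CASAVA 1.8 and kallisto were used with mm10; its version, index and annotation release: not given in the sources used here. TPM carries no read counts, so depth and counting error are unknown. Names and positions came from GENCODE M21 (27458 of 28987 identifiers). Genes that reached 1 TPM in 2 or more of a fit's libraries entered it. Scaling used trimmed means of log ratios, unweighted, with trims of 0.3 and 0.05. Genes were tested, as log2 of scaled TPM plus 1, with limma 3.58.1 (R 4.3.3) and a variance trend, two-sided, with Benjamini-Hochberg adjustment over all genes at 0.05. This scale understates the changes of low genes. Each main fit has 1 residual degree of freedom, and the additive fit to all 7 libraries 3, or 2 with a library left out. In the HSC/P and 5-library fits the spread is that of the 2 RUNX1mut/HMGA2-OE HSC/P libraries alone. There the p-values measure the spread between these libraries, from single mice. In the Ly6G+ fit the spread is the departure of single libraries from additive terms, and no replicate enters it. The fits were also run on simulated data in which each gene had the same spread in every library. That run cannot show whether the HSC/P spread holds for Ly6G+ cells, or whether the Ly6G+ terms are additive. A test for counts had been intended where the table held counts. Genes with values in every library were the catalytic pairs, Psme1, Psme2 and up to 3 extremes a comparison in each direction. Others given so were chosen after their values were seen. Members of 350 to 420 bases in an annotated transcript numbered 6. Python 3.11.15, pandas 2.3.3 and matplotlib 3.10.9 were used. The members, gene lists and tests were chosen with earlier results of these data known.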

Additional observations from a re-analysis of the deposited data

How the results depend on the processing

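No paired analysis was possible, because every group but RUNX1mut/HMGA2-OE HSC/P holds 1 library. The replicate numbers used here also do not identify mice. With no scaling, 47 members passed between HSC/P and Ly6G+ cells in place of 31, and Psmb5 (1.74), Psmb6 (1.41), Psmb8 (1.36), Psme2 (1.09) and Psmd10 (0.70) changed sign; the median of all genes moved to 1.49, which is the alternative's own construction. With upper-quartile scaling, which moved that median to 0.55, Psmb5 (0.37, adjusted p = 0.0415) and Psmb6 (0.039) changed sign. Under it Psmb8 (-0.016) and Psme2 (-0.28) no longer passed, while Psme1 (0.58) did. In the additive limma fit to all 7 libraries 29 members passed, and 22 to 28 with 1 library left out; Psmb8 did not pass (adjusted p = 0.0577), and leaving out HMGA2-OE HSC/P, either RUNX1mut/HMGA2-OE HSC/P library or RUNX1mut/HMGA2-OE Ly6G+ ended the call of Psmb10 (adjusted p of 0.0987, 0.0653, 0.0816 and 0.272). Psmb6 did not pass without RUNX1mut/HMGA2-OE Ly6G+ (adjusted p = 0.0681). With no filter, Psmb6, Psmb8, Psma8 and Psme2b did not pass and Psme1 did. Over all settings, 19 values of named members lost their call and 3 gained one. Every alternative run of the 4 other tests called 0 members. Members past 2-fold in Ly6G+ pairs numbered 1 with 0.1 TPM added (main 0) for RUNX1mut/HMGA2-OE over HMGA2-OE. With 5 TPM added there were 0 for RUNX1mut/HMGA2-OE over RUNX1mut, RUNX1mut/HMGA2-OE over Control and RUNX1mut over Control. Without scaling there were 39 for RUNX1mut/HMGA2-OE over HMGA2-OE, 3 over RUNX1mut and 5 over Control, with medians of all genes at 1.02, 0.55 and 0.72. Leaving S100a8 and S100a9 out of the totals set the members' share to 0.742% and 0.747% in RUNX1mut/HMGA2-OE HSC/P, 0.779% in HMGA2-OE HSC/P, and 0.353%, 0.384%, 0.331% and 0.348% in RUNX1mut/HMGA2-OE, RUNX1mut, HMGA2-OE and Control Ly6G+ cells. Psmb7 and Psmb10 have no short annotated transcript, so leaving out members with one could not change the Psmb10 shares. It gave no share for Psmb8, which has one. Depth is unknown, so what it limits could not be given.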
